A study of Mus musculus with 9 samples.

Results

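Genes that mark or equip tumour macrophages were followed across 9 mouse tumours: C1qa, C1qb, C1qc, Csf1r, Adgre1, Trem2, Apoe, Spp1 and Arg1. They were taken by name from a table of 34745 genes, and all 9 passed the filter on low counts that left 14506 genes for testing. No measured value was used to choose them by the rule, although the choice was made with earlier results of these tumours known.

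The tumours were LLC (Lewis lung carcinoma, a mouse lung cancer line) grown under the skin of the right flank in male wild-type C57BL/6 mice. Mice were randomised when tumours were near 100 mm3, so each library is a separate tumour, with 3 in each of 3 groups. The isotype group received a control antibody at 10 mg/kg, the anti-PDL1 group received an antibody to the checkpoint ligand PD-L1 at 10 mg/kg, and the BTZ+anti-PDL1 group received that antibody and BTZ (bortezomib, a proteasome inhibitor) at 0.5 mg/kg, all by intraperitoneal injection. The libraries were made from total RNA of the tumours. BTZ alone and untreated hosts were not analysed here, the day of collection is not stated in the labels, and the titles of the isotype libraries call them blank.

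Macrophages in tumours arise from blood monocytes and from resident cells, and they depend on signals through the receptor encoded by Csf1r. Many of them make C1q, the recognition unit of the classical complement pathway, whose A, B and C chains are encoded by neighbouring genes and assemble into one protein. C1q, Apoe and Trem2 are widely used to mark phagocytic, lipid-handling macrophages, whereas Spp1 and Arg1 mark macrophage states linked to matrix remodelling and to arginine depletion. Apoe, Spp1 and Arg1 are also made by cells other than macrophages.

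Libraries held 18.52 to 21.51 M counts (M, mega). All 6 macrophage markers (Adgre1, Csf1r, Cd68, Fcgr1, Mertk and C1qa) were detected in every tumour. Isotype replicate 2 stood apart: its summed macrophage markers came to 434.8 CPM (counts per M, scaled by the TMM method) against 653.6 to 843.6 CPM in the other tumours. In that tumour Ptprc, carried by all leukocytes, was at 54.7 CPM against 83.1 to 125 CPM, and the summed T cell markers were at 5.35 CPM against 20.9 to 38.2 CPM. Skeletal muscle markers summed to 2691 CPM in isotype replicate 3, 993 CPM in anti-PDL1 replicate 1 and 757 CPM in BTZ+anti-PDL1 replicate 1, and to 5.26 to 197 CPM elsewhere. The hepatocyte markers Alb, Ttr and Apoa1 had at most 6, 3 and 5 counts in any tumour. Of 7 neutrophil markers, Ly6g had at most 7 counts in any tumour, but the summed neutrophil markers were at 74.9 to 181 CPM. In whole tumour RNA, fewer cells of a type and less RNA per cell cannot be told apart.

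Levels can be compared between genes only per length. On CPM per kilobase of the longest coding transcript, Spp1 was highest at 856 to 1584 over the 9 tumours, above 99.8% of 13179 genes with such a length. Apoe followed at 125 to 353, C1qb at 105 to 248, C1qa at 111 to 244.5, C1qc at 97.9 to 223 and Arg1 at 101 to 191. Csf1r (21.6 to 49.7), Trem2 (22.2 to 43.7) and Adgre1 (16.4 to 37.7) formed the lowest tier, still above 80.6% of genes or more. Neighbours in this order overlapped in range except Spp1 with Apoe and Arg1 with Csf1r, so the 3 tiers were separate while the order within the middle and the lowest tier was not, although C1qa lay above C1qc in all 9 tumours.

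The deposited FPKM values (fragments per kilobase and mega-fragment) give another order, because of the gene length behind them. For 5 of the 9 genes that length equalled, within 1 base, the summed length of every distinct annotated exon in GENCODE M21, with bases shared by overlapping exons counted repeatedly. The same held for 67.7% of the 14454 tested genes found in that annotation. For Trem2 the length was 6119 bases, 5.62 times its longest coding transcript of 1088 bases, and for Spp1 it was 5372 against 1507 bases. For Apoe, which was not among the 5, it was 5592 against 1408 bases. FPKM was therefore used here only to compare a gene with itself between tumours.

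No gene among the 9 differed between groups past the threshold in any comparison by edgeR (adjusted p under 0.05). In anti-PDL1 against isotype tumours, 7 of the 9 were on average higher, with a median log2 fold change of 0.33 against -0.0034 over all genes. By edgeR 0.0138% of all genes were called in that comparison, and 1 of the 9, Adgre1, had an unadjusted p under 0.05, a share that 6.35% of all genes reached. DESeq2 and limma on FPKM also called none of the 9 and put 2 at an unadjusted p under 0.05, Adgre1 and Csf1r. Over all genes, 951 of the 14506 given to DESeq2 reached that p. By limma 810 of 11651 did on log2(FPKM + 1) and 808 on log2(FPKM + 0.1). Csf1r was the 1 gene of the 9 whose values were higher without overlap, which 6.08% of genes were, and none was lower without overlap, as 6.61% were. Without isotype replicate 2, 6 of the 9 were on average higher and the median was 0.10. Other markers also separated these groups: red blood cell markers summed to 136 to 268 CPM in isotype and 45.3 to 88.8 CPM in anti-PDL1 tumours, and NK cell markers to 5.04 to 6.85 and 6.93 to 9.13 CPM. Their part in the values of the 9 genes was not tested.

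Adding BTZ to anti-PDL1 left the 9 genes with log2 differences between -0.18 and 0.21. Their median was 0.021 against 0.0029 over all genes, with 5 of 9 on average higher. None was called by edgeR, where 0.0138% of all genes were, and 0 of the 9 had an unadjusted p under 0.05 by edgeR, DESeq2 or limma, against 5.82% of all genes by edgeR. Over all genes 853 of 14506 did by DESeq2, and 713 and 697 of 11651 by limma with the same 2 offsets, 1 and 0.1. With only the 6 tumours compared, edgeR put 1 of the 9, Csf1r, under 0.05, with 1132 of 14190 genes. Without isotype replicate 2 it also put Csf1r there, with 920 of 14733 genes. Csf1r was lower without overlap, as 6.99% of genes were, and none was higher without overlap, as 7.33% were. Without BTZ+anti-PDL1 replicate 1 the median was -0.0989 with 3 of 9 higher, and without anti-PDL1 replicate 1 it was 0.11 with 6 of 9 higher. Summed fibroblast markers were at 8900 to 11790 CPM in anti-PDL1 and 7854 to 8066 CPM with BTZ added, and endothelial markers at 168 to 219 and 133 to 166 CPM, with no overlap; their part was not tested.

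In BTZ+anti-PDL1 against isotype tumours, 8 of the 9 were on average higher, with a median log2 fold change of 0.29 against -0.0011 over all genes. By edgeR 0.00689% of all genes were called and none of the 9. At an unadjusted p under 0.05, edgeR, DESeq2 and limma each had 0 of the 9, against 8.6% of all genes by edgeR. Over all genes 1276 of 14506 did by DESeq2, and by limma 1096 of 11651 on log2(FPKM + 1) and 1091 on log2(FPKM + 0.1). None of the 9 was higher or lower without overlap, against 6.96% and 6.03% of genes. Without isotype replicate 2 the 8 higher averages stayed, and their median log2 fold change was 0.06. NK cell markers summed to 8.17 to 10.8 CPM in BTZ+anti-PDL1 tumours against 5.04 to 6.85 CPM in isotype tumours, and Ptprc stood at 105.5 to 125 against 54.7 to 104 CPM, both without overlap; their part was not tested. This comparison and the first share the isotype tumours, and each shares a treated group with the second, so the 3 are not independent.

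**Figure D1:**
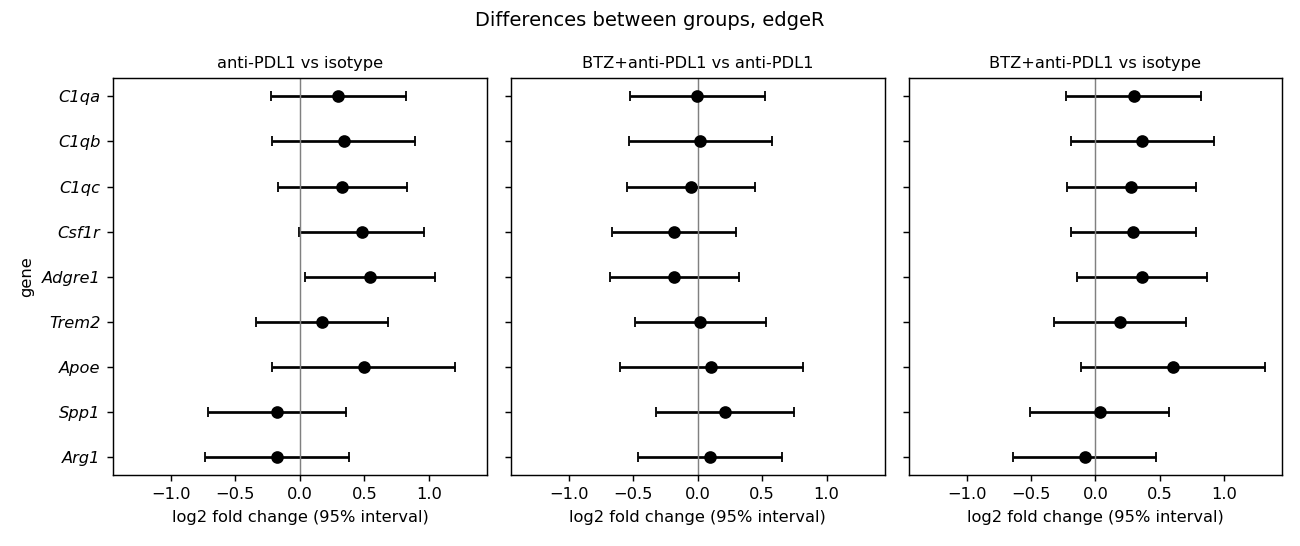
Log2 fold change (horizontal axis) of each of the 9 genes (vertical axis) in the 3 comparisons, from edgeR; points are estimates and bars are 95% intervals. All intervals span 0 except that of Adgre1 in anti-PDL1 against isotype tumours, 0.04 to 1.05, whose adjusted p is 0.763.

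The 3 C1q chains encode the subunits of one protein and had similar counts in each tumour, which is not a comparison of levels: per kilobase C1qc lay below C1qa in all 9. C1qa (chr4:136895917-136898803, minus strand, 3 exons) stood at 193, 115 and 221 CPM in isotype tumours, 254, 206 and 191 CPM in anti-PDL1 tumours, and 244.5, 214 and 191 CPM in BTZ+anti-PDL1 tumours. C1qb (chr4:136880129-136886187, minus strand) stood at 202, 115 and 232 CPM, then 269.9, 217 and 208 CPM, then 264, 233.5 and 208 CPM, in the same order. C1qc (chr4:136889804-136893065, minus strand) stood at 206, 118 and 217 CPM, then 268, 204 and 207 CPM, then 233, 220.5 and 202 CPM. For each chain isotype replicate 2 was the lowest tumour, anti-PDL1 replicate 1 the highest, and all 3 groups overlapped. By edgeR the chains differed by 0.30 ± 0.228 (C1qa, SE), 0.34 ± 0.241 (C1qb) and 0.33 ± 0.218 (C1qc) on the log2 scale in anti-PDL1 against isotype tumours, with adjusted p of 0.82 to 0.832. BTZ+anti-PDL1 tumours differed from isotype tumours by 0.30, 0.36 and 0.28, and from anti-PDL1 tumours by -0.0029, 0.02 and -0.05. Leaving out isotype replicate 2 gave 0.0735, 0.0994 and 0.10 for anti-PDL1 and 0.071, 0.12 and 0.051 for BTZ+anti-PDL1 against isotype. Leaving out isotype replicate 3 gave 0.49, 0.55 and 0.48, then 0.49, 0.57 and 0.43, and leaving out anti-PDL1 replicate 1 gave 0.17, 0.22 and 0.19 in the first of these. The 95% interval for C1qa after BTZ was added ran from 0.695-fold to 1.43-fold, with 3 tumours a group and the spread estimated over all 9. By that interval the data are compatible with a fall, no change or a rise within that range. Its width depended on the isotype tumours, which are outside this comparison. The SE was 0.227, against 0.128 with only the 6 tumours compared and 0.126 without isotype replicate 2. The 3 groups' ranges depended on 1 tumour: the highest C1qa value was 2.2 times the lowest over 9 tumours and 1.33 times without isotype replicate 2.

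**Figure D2:**
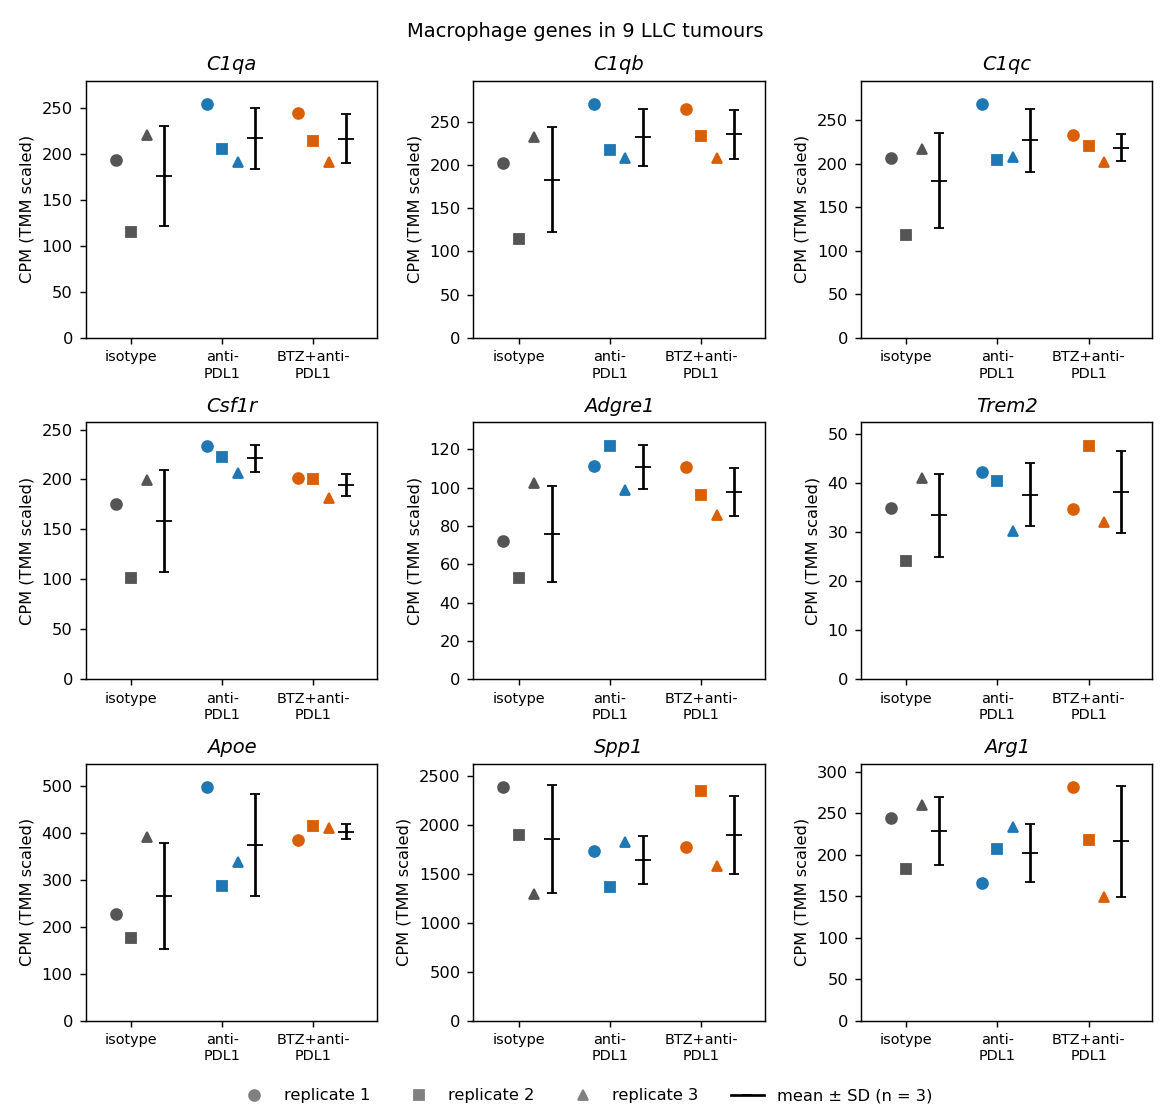
CPM (vertical axes, from 0) of the 9 genes in each tumour by group; symbols mark the replicate number, and bars give mean ± SD of 3 tumours. Isotype replicate 2, the dark square, is the lowest tumour for 7 of the 9 genes, all but Spp1 and Arg1.

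Within a tumour the chains kept a nearly fixed ratio. C1qb counts were 1.06 ± 0.031 times C1qa counts (SD, n = 9 tumours), with a coefficient of variation of the C1qa to C1qb ratio of 3.01% where counting error alone gives 2.26%. For C1qa to C1qc the coefficient was 4.22% against 2.27%, and for C1qb to C1qc it was 4.9% against 2.24%. The next most even pair was C1qc with Csf1r at 7.72%, and the C1qa to Trem2 ratio varied by 14.2%. Over the 9 tumours C1qa and C1qb had Pearson r = 0.997 and Spearman rho = 0.917, with exact permutation p of 3.31e-05 and 0.00131, adjusted over 36 pairs to 0.00112 and 0.0236. Without isotype replicate 2 and anti-PDL1 replicate 1, the tumours farthest from the median, r was 0.981 for C1qa with C1qb, 0.928 for C1qa with C1qc and 0.95 for C1qb with C1qc. These pairs share the library, and the genes lie within 18675 bases, in the order C1qb, C1qc, C1qa on the minus strand.

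Upstream sequences are shown for C1qb and C1qc, which moved together, and for Spp1, which did not move with them. They end at the base before the RefSeq start, except that of C1qc, which ends before the start in the deposited table, so that no transcribed base is included. All are from RefSeq on GRCm38.p6 (mm10), 5′ to 3′ on the strand of the gene, where an entry was found for 5 of the 9 genes. Capitals mark GAGGAA, a core of sites bound by PU.1, the factor that directs macrophage development, and the longer ETS-type letters AGGAAGT, on either strand; both were chosen with the sequences in view. The stretches are chr4:136886201-136886450 (minus), chr4:136893066-136893164 (minus) and chr5:104434861-104435110 (plus).
C1qb: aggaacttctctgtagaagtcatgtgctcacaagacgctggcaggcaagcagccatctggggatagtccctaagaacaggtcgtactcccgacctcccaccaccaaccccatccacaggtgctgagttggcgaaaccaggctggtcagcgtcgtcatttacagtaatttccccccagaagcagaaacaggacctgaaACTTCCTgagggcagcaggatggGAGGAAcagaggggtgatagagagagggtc
C1qc: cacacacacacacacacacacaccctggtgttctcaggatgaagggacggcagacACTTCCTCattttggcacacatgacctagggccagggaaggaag
Spp1: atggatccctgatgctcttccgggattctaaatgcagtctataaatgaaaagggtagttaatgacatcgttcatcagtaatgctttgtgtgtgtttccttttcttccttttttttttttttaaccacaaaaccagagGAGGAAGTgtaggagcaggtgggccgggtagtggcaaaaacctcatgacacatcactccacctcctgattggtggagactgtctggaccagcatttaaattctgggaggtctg
The C1qb stretch has AGGAAGT, on the reverse strand, beginning 53 bases before its end and GAGGAA at 30 bases. In C1qc the matches overlap, 44 and 42 bases before its end, and in Spp1 they overlap 112 and 113 bases before its end. Of 32851 promoter entries, 23.2% hold GAGGAA and 7.69% hold AGGAAGT in the same 250 bases, and 9.91% and 2.654% in the 99 bases used for C1qc. The Apoe and Trem2 stretches each hold GAGGAA 1 time and no AGGAAGT. The genes that moved together and the gene that did not thus both had matches, and a match is a description of letters only.

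Csf1r encodes the receptor for the growth factors Csf1 and Il34, and Adgre1 encodes F4/80, a surface protein used to identify mouse macrophages. Csf1r stood at 175.5, 101 and 199 CPM in isotype tumours, 234, 223 and 206.5 CPM in anti-PDL1 tumours, and 202, 200.3 and 181.5 CPM in BTZ+anti-PDL1 tumours. Every anti-PDL1 tumour lay above every isotype tumour and above every BTZ+anti-PDL1 tumour, though by 206.5 against 202 CPM at the nearest. By edgeR the log2 difference from isotype was 0.48 ± 0.211 (SE), or 1.39-fold with a 95% interval of 0.997 to 1.95, with an unadjusted p of 0.0519 and an adjusted p of 0.763. It was 0.24 ± 0.0885 without isotype replicate 2. BTZ+anti-PDL1 tumours were at 0.29 ± 0.211 against isotype (edgeR adjusted p = 0.715), with 0.06 without isotype replicate 2 and 0.49 without isotype replicate 3. After BTZ was added Csf1r was at -0.18 ± 0.21 relative to anti-PDL1 tumours (edgeR adjusted p = 0.933). With only the 6 tumours compared the SE was 0.0741 (edgeR unadjusted p = 0.0358, adjusted p = 0.588). Without isotype replicate 2 it was 0.0787 (edgeR unadjusted p = 0.0446, adjusted p = 0.782). The Csf1r gene overlaps Mir6983 and, on the opposite strand, the protein-coding gene Hmgxb3, so its count is uncertain without a stated strand setting.

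Adgre1 (chr17:57358686-57483529, plus strand) stood at 72.2, 53 and 103 CPM in isotype tumours, 111.5, 122 and 98.9 CPM in anti-PDL1 tumours, and 111, 96 and 85.9 CPM in BTZ+anti-PDL1 tumours. Isotype replicate 3, at 103 CPM, lay above anti-PDL1 replicate 3, so the groups overlapped. Adgre1 had the largest log2 fold change of the 9 genes in anti-PDL1 against isotype tumours, 0.54 ± 0.219 (SE), or 1.46-fold with a 95% interval of 1.03 to 2.065 (edgeR unadjusted p = 0.037, adjusted p = 0.763). It was 0.35 without isotype replicate 2 and 0.82 without isotype replicate 3, the tumour richest in muscle markers (edgeR adjusted p = 0.983 and 0.172). In BTZ+anti-PDL1 against isotype tumours it was 0.36 ± 0.219 (edgeR adjusted p = 0.674), with 0.16 and 0.64 without the same tumours, and it was -0.18 ± 0.218 when BTZ was added (edgeR adjusted p = 0.938), with -0.28 without BTZ+anti-PDL1 replicate 1 and -0.0959 without BTZ+anti-PDL1 replicate 3. Adgre1 and Csf1r moved together over the 9 tumours, with r = 0.938 (exact permutation p = 0.00022, adjusted 0.00198), rho = 0.9 and r = 0.823 without isotype replicates 1 and 2.

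Trem2 encodes a lipid-sensing receptor that signals through the adaptor Tyrobp. Trem2 (chr17:48346401-48354147, plus strand) stood at 34.9, 24.1 and 41 CPM in isotype tumours, 42.1, 40.4 and 30.2 CPM in anti-PDL1 tumours, and 34.7, 47.5 and 32.1 CPM in BTZ+anti-PDL1 tumours. The groups overlapped throughout. By edgeR the log2 differences were 0.17 ± 0.224, 0.02 ± 0.224 and 0.19 ± 0.225 for anti-PDL1 over isotype, the combination over anti-PDL1 and the combination over isotype, with adjusted p of 0.894, 0.993 and 0.824. The first was -0.0094 without isotype replicate 2 and 0.35 without isotype replicate 3. The last was 0.0026 without BTZ+anti-PDL1 replicate 2 and 0.37 without isotype replicate 3. With 488 to 890 counts per tumour it had the fewest counts of the 9 genes.

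Apoe encodes the lipid-carrying apolipoprotein E, which binds Trem2 and receptors of the low-density lipoprotein family. Apoe (chr7:19696109-19699166, minus strand) stood at 228, 176.5 and 392 CPM in isotype tumours, 497, 288 and 337 CPM in anti-PDL1 tumours, and 384, 414.5 and 409.5 CPM in BTZ+anti-PDL1 tumours. The BTZ+anti-PDL1 tumours lay close together, above isotype replicates 1 and 2 and level with isotype replicate 3. By edgeR the log2 difference between those groups was 0.60 ± 0.306 (SE), or 1.52-fold with a 95% interval of 0.926 to 2.48 (unadjusted p = 0.0869, adjusted p = 0.629). Anti-PDL1 tumours differed from isotype tumours by 0.49 ± 0.306 (edgeR adjusted p = 0.807) and BTZ+anti-PDL1 tumours from anti-PDL1 tumours by 0.11 ± 0.305 (edgeR adjusted p = 0.975).

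The Apoe differences turned on single tumours. For anti-PDL1 against isotype the log2 value was 0.28 or 0.89 with isotype replicate 2 or 3 left out, and 0.23 with anti-PDL1 replicate 1 left out. For BTZ+anti-PDL1 against isotype it was 0.38 without isotype replicate 2 and 0.99 without isotype replicate 3. The edgeR adjusted p of the latter, 0.154, was the lowest of 486 alternative estimates, 1 for each of the 9 genes, comparison and setting. With the tumour richest in muscle markers left out of each group the log2 value was 1.03 ± 0.142, with an unadjusted p of 0.00022 and an adjusted p of 0.221 by edgeR. The part of muscle or of leukocyte content in these values was not tested.

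Spp1 encodes osteopontin, a secreted protein that binds integrins and Cd44. Spp1 (chr5:104435118-104441050, plus strand) stood at 2387, 1902 and 1290 CPM in isotype tumours, 1738, 1363 and 1824 CPM in anti-PDL1 tumours, and 1776, 2347 and 1578 CPM in BTZ+anti-PDL1 tumours. Isotype tumours held both the highest and the lowest value, so the treated groups lay within their range. By edgeR the log2 differences were -0.18 ± 0.235, 0.21 ± 0.235 and 0.03 ± 0.235 for anti-PDL1 over isotype, the combination over anti-PDL1 and the combination over isotype, with adjusted p of 0.895, 0.931 and 0.977. The first was 0.05 without isotype replicate 1 and -0.39 without isotype replicate 3, and the second was 0.03 without BTZ+anti-PDL1 replicate 2. Of 4 osteoclast markers, Dcstamp had at most 14 counts in any tumour and Ocstamp 11 to 56, while Acp5 had 103 to 479 and Ctsk 131 to 549. Their part in the Spp1 values was not tested. Spp1 overlaps the same-strand locus Gm42793, so their reads could be split.

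Arg1 encodes arginase 1, which breaks down arginine to ornithine and urea. Arg1 (chr10:24915208-24927470, minus strand, 8 exons) stood at 245, 182 and 259.9 CPM in isotype tumours, 166, 207 and 234 CPM in anti-PDL1 tumours, and 282, 218 and 149 CPM in BTZ+anti-PDL1 tumours. Both extremes, 282 and 149 CPM, lay in the BTZ+anti-PDL1 group. By edgeR the log2 differences were -0.18 ± 0.242, 0.10 ± 0.242 and -0.08 ± 0.241, in the order given for Spp1, with adjusted p of 0.898, 0.97 and 0.937. With the muscle-rich tumours left out the first was 0.05 and the second -0.27. The first was -0.31 with isotype replicate 2 left out and -0.054 with anti-PDL1 replicate 1 left out.

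**Figure D3:**
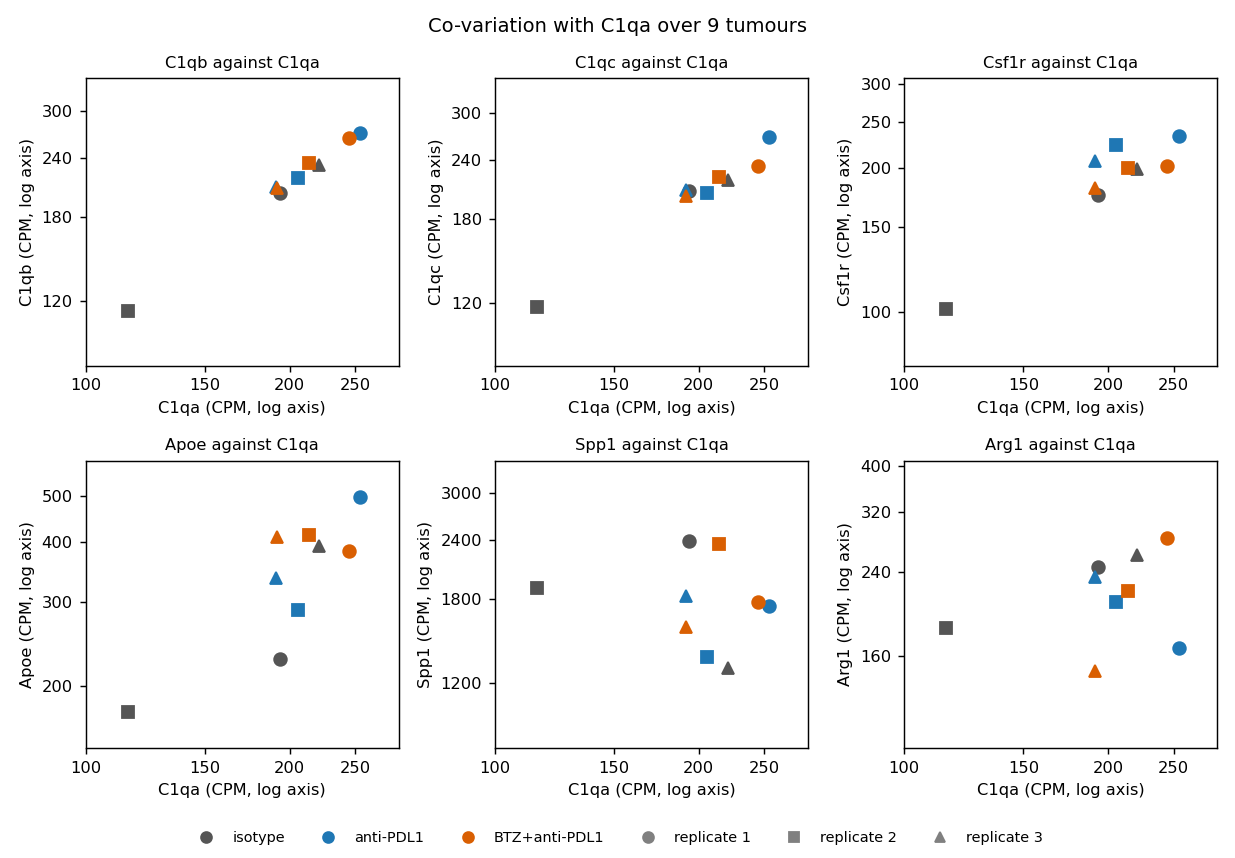
CPM of C1qb, C1qc, Csf1r, Apoe, Spp1 and Arg1 (vertical, log axes) against CPM of C1qa (horizontal, log axis) in the 9 tumours; colours mark groups and symbols replicate numbers. C1qb and C1qc follow C1qa across all tumours (r = 0.997 and 0.983), and over the 9 tumours r was -0.18 for Spp1 and 0.28 for Arg1.

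Over all 9 tumours, 7 of the genes had higher correlations with each other than with Spp1 or Arg1. Among C1qa, C1qb, C1qc, Csf1r, Adgre1, Trem2 and Apoe the 21 pairs had r from 0.67 to 0.997, and 19 pairs passed an adjusted p under 0.05 by exact permutation for Pearson's r but 4 for Spearman's rho. The 4 were the 3 C1q pairs and Adgre1 with Csf1r. Without the 2 tumours farthest from the median of a gene of the pair, which differed by pair, r for the 21 pairs ran from -0.34 to 0.981. C1qa with Csf1r, for example, went from 0.931 to 0.34, and C1qa with Apoe from 0.834 to 0.411, so those relations rested on isotype replicate 2 and anti-PDL1 replicate 1. Spp1 had r from -0.46 to -0.08 with the 7 genes and Arg1 from -0.08 to 0.28, and none of those 14 pairs passed. The Arg1 values also depended on which tumours were included. Without isotype replicate 2 alone, r of Arg1 was 0.098 with C1qa and -0.15 with Csf1r. Without the 2 farthest tumours, r of Arg1 ran from -0.364 with Apoe to 0.683 with C1qc. It was 0.615 with C1qa, 0.605 with Csf1r and -0.038 with Trem2. The tumours left out were isotype replicate 2 and anti-PDL1 replicate 1 for C1qa and C1qc. For Csf1r they were anti-PDL1 replicate 1 and BTZ+anti-PDL1 replicate 3. For deviations from the group means, r of Arg1 reached 0.592, with Adgre1.

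The ratio of 2 genes within a tumour compares them apart from the total macrophage share where both come only from those cells. That cannot be assumed for ratios with Spp1, Arg1 or Apoe, which other cells also make. Spp1 counts were 9.35 ± 3.43 times C1qa counts (SD, n = 9), from 5.85 in isotype replicate 3 to 16.5 in isotype replicate 2. Those 2 extremes were both isotype tumours. The log2 ratio of Spp1 to C1qa was 3.4 ± 0.771 in isotype, 2.92 ± 0.291 in anti-PDL1 and 3.12 ± 0.305 in BTZ+anti-PDL1 tumours (SD, n = 3), and the groups overlapped.

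The log2 ratio of Arg1 to C1qa was 0.34, 0.66 and 0.24 in isotype tumours and 0.20, 0.03 and -0.36 in BTZ+anti-PDL1 tumours, lower by a mean of -0.46 without overlap. Its highest value, 0.66, was in isotype replicate 2, the tumour with the lowest C1qa. The log2 ratio of C1qa to Csf1r was 0.14, 0.19 and 0.15 in isotype tumours and 0.12, -0.12 and -0.11 in anti-PDL1 tumours, lower by a mean of -0.19 without overlap. Each had p = 0.1 by a two-sided exact permutation test, the smallest p that 3 tumours against 3 allow. Adjusted over the 18 ratio tests both were 0.771, so neither passed, and the other 16 had overlapping groups.

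**Figure D4:**
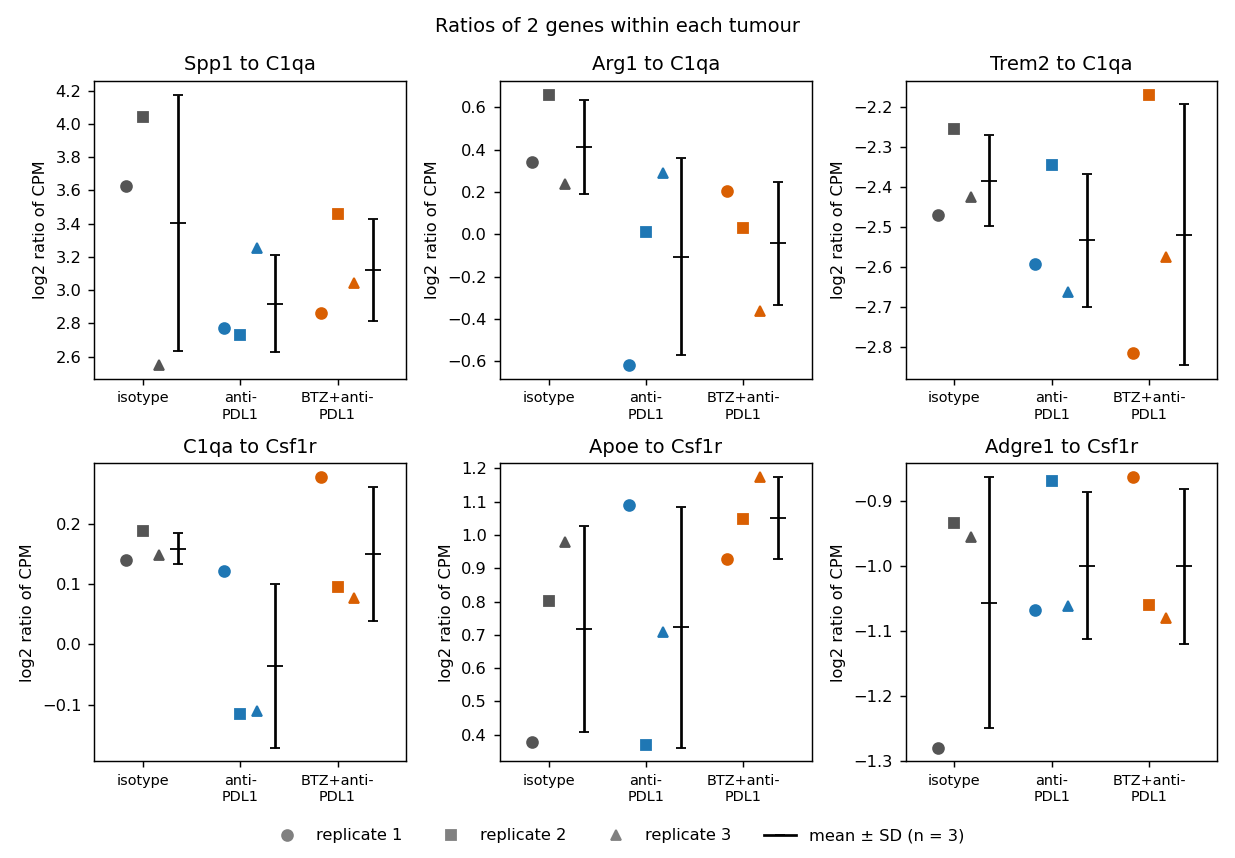
Log2 ratio of the CPM of 2 genes within each tumour (vertical axes, not starting at 0), by group; symbols mark replicate numbers and bars give mean ± SD of 3 tumours. Arg1 to C1qa is lower in all 3 BTZ+anti-PDL1 tumours than in isotype tumours, and C1qa to Csf1r is lower in all 3 anti-PDL1 tumours than in isotype tumours.

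Other genes of the complement and receptor pathways were counted from lists that hold none of the 9, and edgeR called none of their genes in any comparison. Of 9 genes around C1q (other parts of the C1 complex, its inhibitor and its ligands or receptors), 7 were tested. In these, 4 were higher in anti-PDL1 than isotype tumours (median log2 fold change 0.19, and 0.075 without anti-PDL1 replicate 2), 6 were lower when BTZ was added (median -0.26), and all 7 were lower in BTZ+anti-PDL1 than isotype tumours (median -0.15, against 49.7% of all genes higher). The largest single difference was in Serping1, the C1 inhibitor, at -1.08 ± 0.589 when BTZ was added (edgeR adjusted p = 0.886). C1qbp, a C1q-binding protein of mitochondria, was at -0.23 ± 0.0976 in BTZ+anti-PDL1 against isotype tumours (edgeR unadjusted p = 0.0416, adjusted p = 0.569). Without isotype replicate 3, 4 of the 7 were higher in that comparison (median 0.03), and without isotype replicate 1 the median was -0.28.

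Of 10 partners of Trem2 and Csf1r, 8 were on average higher in anti-PDL1 and 10 in BTZ+anti-PDL1 against isotype tumours, with medians of 0.23 and 0.35 (49% and 49.7% of all genes were higher), and 8 were higher when BTZ was added (median 0.06, and 0.005 with 5 higher without anti-PDL1 replicate 2). These counts were, with isotype replicate 2 left out, 7 and 7, with medians of 0.09 and 0.14, and without isotype replicate 3 the medians were 0.44 and 0.58. Il34, the second ligand of the Csf1r receptor, stood at 17.5, 16.8 and 16.6 CPM in isotype tumours, 21.3, 14 and 21.7 CPM in anti-PDL1 tumours, and 25.4, 28.6 and 23.5 CPM in BTZ+anti-PDL1 tumours. All 3 BTZ+anti-PDL1 tumours lay above the other 6, yet the log2 difference from isotype, 0.61 ± 0.162, had an edgeR adjusted p of 0.456 (unadjusted p = 0.00425). Of all genes, 6.96% were higher without overlap in BTZ+anti-PDL1 than isotype tumours and 7.33% than anti-PDL1 tumours. Il34 was named for its small p, so its separation adds no further support. Tyrobp was at 0.36 ± 0.192 in anti-PDL1 against isotype tumours (edgeR adjusted p = 0.77), and the signalling enzyme Plcg2 was at 0.40 ± 0.191 in BTZ+anti-PDL1 against isotype tumours (edgeR adjusted p = 0.601).

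Of 12 tested genes of lipid handling around Apoe, 8 were higher in anti-PDL1 than isotype tumours (median 0.10), 9 were lower when BTZ was added (median -0.19), and 5 were higher and 7 lower in BTZ+anti-PDL1 than isotype tumours (median -0.03). Over all genes 49%, 50.8% and 49.7% were higher in the same comparisons. The first median was 0.0309 without isotype replicate 2 and 0.28 without isotype replicate 3. The last was 0.05, with 7 higher, without BTZ+anti-PDL1 replicate 1. Abcg1, which exports cholesterol to lipoproteins, stood at 15.9, 15.2 and 16.1 CPM in isotype, 21.1, 25.3 and 25.5 CPM in anti-PDL1, and 19.8, 21.7 and 20.4 CPM in BTZ+anti-PDL1 tumours. Every treated tumour lay above every isotype tumour, and the log2 difference for anti-PDL1 was 0.61 ± 0.103 with an edgeR unadjusted p of 0.00019 and an adjusted p of 0.551. Of all genes, 6.08% were higher than isotype without overlap in anti-PDL1 and 6.96% in BTZ+anti-PDL1 tumours, and Abcg1 was named for its small p. Lrp1, a receptor for both Apoe and C1q that stands in both lists, ran from 1837 to 2458 CPM and was at -0.23 ± 0.0988 when BTZ was added (edgeR adjusted p = 0.852). Gpnmb, a glycoprotein of phagocytes, was at 0.23 ± 0.0924 in anti-PDL1 against isotype tumours (edgeR unadjusted p = 0.0314, adjusted p = 0.763).

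The 7 osteopontin receptors had medians of -0.03, -0.04 and -0.06 in anti-PDL1 over isotype, with BTZ added, and in BTZ+anti-PDL1 over isotype, with 3, 1 and 3 genes higher. The first was 0.06, with 5 higher, without isotype replicate 2, and the last was 0.05, with 4 higher, without BTZ+anti-PDL1 replicate 2. Cd44 ran from 328.5 to 472 CPM with overlap between all groups, and Itgb3 was at -0.41 ± 0.18 in BTZ+anti-PDL1 against isotype tumours (edgeR unadjusted p = 0.0482, adjusted p = 0.578). The integrin gene Itga4 was at 0.45 ± 0.288 in anti-PDL1 against isotype tumours (edgeR adjusted p = 0.815).

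Of 10 tested genes of arginine use and alternative activation, 8 were higher in anti-PDL1 than isotype tumours (median 0.12), 4 when BTZ was added (median -0.08) and 6 in BTZ+anti-PDL1 than isotype tumours (median 0.06). The first was 7 with a median of 0.0473 without isotype replicate 2, and its median was 0.29 without isotype replicate 3, where that of the last was 0.24. Slc7a2, a transporter that brings arginine into cells, stood at 2.99, 1.98 and 3.5 CPM in isotype, 7.15, 5.79 and 11.1 CPM in anti-PDL1, and 6.16, 6.84 and 5.52 CPM in BTZ+anti-PDL1 tumours. Every treated tumour thus lay above every isotype tumour. Of all genes, 6.08% were higher than isotype without overlap in anti-PDL1 and 6.96% in BTZ+anti-PDL1 tumours, and Slc7a2 was named for its small p. Its log2 difference from isotype was 1.5 ± 0.285 for anti-PDL1 (edgeR unadjusted p = 0.00042, adjusted p = 0.605) and 1.13 ± 0.285 for BTZ+anti-PDL1 (edgeR adjusted p = 0.391), while Arg1 itself was at -0.18 and -0.08. Ass1, which uses citrulline to remake arginine, was at 0.31 ± 0.132 in BTZ+anti-PDL1 against isotype tumours (edgeR unadjusted p = 0.0438, adjusted p = 0.569). Odc1, which turns ornithine into putrescine, was at 0.19 ± 0.0929 when BTZ was added (edgeR adjusted p = 0.877).

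Among 18 other macrophage genes, 16 were on average higher in anti-PDL1 than isotype tumours (median 0.33, against 49% of all genes higher), 14 were lower when BTZ was added (median -0.13), and 13 were higher in BTZ+anti-PDL1 than isotype tumours (median 0.18). Without isotype replicate 2, which was low in leukocyte and macrophage markers, the first count was 15 (median 0.12) and the third was 9 (median 0.0022). Without isotype replicate 3 they were 17 (median 0.52) and 13 (median 0.30), and without anti-PDL1 replicate 2 the second median was -0.0819. Siglec1, a sialic acid-binding receptor of macrophages also known as an interferon-responsive gene, stood at 75.3, 59.3 and 86.8 CPM in isotype, 119, 124 and 115 CPM in anti-PDL1, and 98.2, 99.7 and 100.3 CPM in BTZ+anti-PDL1 tumours. The groups were separate, with BTZ+anti-PDL1 between the others, but Siglec1 was named for its small p. Of all genes, 6.08% were higher without overlap in anti-PDL1 and 6.96% in BTZ+anti-PDL1 than in isotype tumours. When BTZ was added, 6.99% were lower without overlap. The log2 differences were 0.69 ± 0.116 for anti-PDL1 against isotype (edgeR unadjusted p = 0.000164, adjusted p = 0.551) and -0.26 ± 0.115 when BTZ was added (edgeR adjusted p = 0.854). The scavenger receptor Msr1 was at 0.48 ± 0.182 in the first comparison (edgeR adjusted p = 0.763). Marco, another scavenger receptor, ran from 1.47 to 13.2 CPM and was at 1.05 ± 0.56 in anti-PDL1 against isotype tumours (edgeR adjusted p = 0.77) and -1.46 ± 0.569 when BTZ was added (edgeR unadjusted p = 0.0324, adjusted p = 0.849).

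The genes whose log2 CPM followed a member most closely over the 9 tumours were sought among 10534 genes with the 9 members and predicted loci left out, as a description with no test. For C1qa, whose r was 0.997 with C1qb and 0.983 with C1qc, they were Taf6l (r = 0.983), Cd48 (0.979), Pld4 (0.971), Ctss (0.967), Unc93b1 (0.958) and Fmnl1 (0.956). Ctss ran from 178 to 512 CPM and Cd48 from 7.33 to 19.6 CPM. For Spp1 they were Tnks2 (0.951), Sestd1, Ccdc130, Brsk1, Cpq and Itfg1 (0.931). For Arg1 they were Rap1b (0.928), Sharpin, Dnaja3, Sugt1, Bfar and Cebpzos (0.881). No gene stood in more than 1 of these groups of 6.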

How the data were processed

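RNA sequencing of 9 tumours was analysed from 1 deposited table. Its count columns hold whole reads or fragments per gene, not normalised, per the file headers, and its FPKM columns are the authors' counts divided by gene length and column total. Per the submitters' processing notes, HISAT2 2.0.4, StringTie 1.3.3b and the build mm10 were used, in roles not stated; the counting tool, annotation and strand setting are not given in the sources used here. Groups follow the treatment labels, which name no batch. Counts were tested with edgeR 4.0.16 (R 4.3.3): filterByExpr (minimum count 10), TMM scaling, robust quasi-likelihood F test, 1 mean per group over 9 tumours (6 residual degrees of freedom), Benjamini-Hochberg adjustment over 14506 genes, threshold 0.05, two-sided. SE was derived from the log2 fold change and its F value, with a median of 0.138 over genes. The edgeR p-values set group differences against the spread between tumours, as estimated with information shared over genes. P-values of ratios and correlations are from exact permutation of tumours. The edgeR fit was tested on simulated counts. The genes and lists were chosen with earlier results of these data known. Named genes are the 9 members, the 3 genes of each list with the smallest p in any comparison, and the 6 genes most like C1qa, Spp1 and Arg1 (mean CPM of at least 5). C1rb, C1s2, Apoc1, Apoc4 and Retnla failed the count filter. Alternatives were DESeq2 1.42.0, limma 3.58.1 on log2(FPKM + 1) or log2(FPKM + 0.1) with FPKM of at least 1 in 3 tumours, other scalings and filters, a replicate block, and tumours left out.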

Additional observations from a re-analysis of the deposited data

How the results depend on the processing

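None of the 9 genes passed an adjusted p of 0.05 in 486 alternative estimates, 1 for each gene, comparison and setting. Of these estimates, 458 kept the direction. They include settings that leave out a tumour of the group not compared, where the estimate can hardly move. C1qa in anti-PDL1 against isotype, for example, was 0.298 as reported and 0.299 without BTZ+anti-PDL1 replicate 1. The 458 thus overstates how far direction was put to the test. The number of all genes called (2 for anti-PDL1 against isotype, 2 for BTZ+anti-PDL1 against anti-PDL1 and 1 for BTZ+anti-PDL1 against isotype, by edgeR) was 15, 58 and 112 with DESeq2. It was 0, 0 and 0 with the muscle-rich tumours left out. With no count filter it was 4 and 6 in the comparisons of BTZ+anti-PDL1 with anti-PDL1 and with isotype, with only the 6 tumours compared it was 12 and 0, and on FPKM with either pseudocount it was 3 in the last of these. With 1 tumour left out in turn it was 1 to 4, 1 to 7 and 0 to 20. Isotype replicate 3 gave the 20 and isotype replicate 1 the 7, and the cause was not tested. Depth ran from 18.52 to 21.51 M counts, and its part in these counts was not tested.

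The labels state no pairing of tumours by replicate number. Deviations of same-numbered tumours had r from -0.43 to 0.39 and those of differently numbered tumours from -0.42 to 0.58. These overlapping ranges cannot settle whether numbers pair tumours. A replicate block gave 1, 1 and 0 genes called and none of the 9.

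Among the single-gene differences that changed sign, the largest as reported were -0.18 for Spp1, -0.18 for Arg1 and 0.17 for Trem2, all in anti-PDL1 against isotype. For C1qa, BTZ+anti-PDL1 against anti-PDL1, the log2 difference was 0.0042 with upper quartile scaling, 0.0024 with the replicate block, 0.0296 without the muscle-rich tumours, 0.0151 on log2(FPKM + 1) and 0.0152 on log2(FPKM + 0.1). Without the muscle-rich tumours the same comparison gave 0.0352 for C1qc and -0.27 for Arg1, Arg1 was 0.0467 in anti-PDL1 against isotype, and Spp1 was -0.13 in BTZ+anti-PDL1 against isotype. With 1 tumour left out in turn, the addition of BTZ to anti-PDL1 gave -0.10 to 0.13 for C1qa, -0.0711 to 0.15 for C1qb, -0.12 to 0.0856 for C1qc, -0.0499 to 0.37 for Apoe, -0.17 to 0.13 for Trem2 and -0.14 to 0.31 for Arg1. BTZ+anti-PDL1 against isotype gave -0.17 to 0.26 for Spp1 and -0.32 to 0.13 for Arg1. Anti-PDL1 against isotype gave -0.39 to 0.0467 for Spp1 and -0.0094 to 0.35 for Trem2.

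Of the ratios, 107 of 126 alternatives kept the direction. With 1 tumour left out in turn, Adgre1 to Csf1r ran from -0.0544 to 0.12 (anti-PDL1 against isotype), -0.0702 to 0.0636 (BTZ+anti-PDL1 against anti-PDL1) and -0.0558 to 0.12 (BTZ+anti-PDL1 against isotype). Apoe to Csf1r ran from -0.18 to 0.18 in anti-PDL1 against isotype. In BTZ+anti-PDL1 against anti-PDL1, Arg1 to C1qa ran from -0.19 to 0.26 and Trem2 to C1qa from -0.16 to 0.16. In BTZ+anti-PDL1 against isotype, C1qa to Csf1r ran from -0.0727 to 0.0276, Spp1 to C1qa from -0.71 to 0.0336 and Trem2 to C1qa from -0.31 to 0.0122.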
